A study of Homo sapiens with 15 samples.

Results

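The endoplasmic reticulum (ER) genes described here encode the machinery that brings new proteins into the ER, folds them, and removes those that fail to fold. The list holds 49 genes, chosen by name: stress sensors and their factors, chaperones, J proteins, disulfide enzymes, translocon and signal peptidase subunits, degradation factors and COPII coat proteins. It was drawn up with earlier results of these data known. Shares of members set beside a background therefore describe this list and give no independent support. All 49 were found among the 57773 genes of the count files, and all 49 were among the 13085 genes with enough counts to test.

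RNA was sequenced from MM.1S tumors, an established multiple myeloma cell line carrying green fluorescent protein and luciferase, after injection of the cells into a vein of SCID-beige mice. There were 5 groups with 3 libraries each. The control group (PBS) received a weekly saline injection. The bortezomib group received this proteasome inhibitor at 0.25 mg/kg into the peritoneum, weekly. The elesclomol group received this copper-binding compound at 25 mg/kg under the skin. The combination group received both agents, and the delayed combination group received bortezomib with elesclomol begun 14 days after inclusion. Each treatment group had 5 mice, and bone marrow was flushed from the femurs once limbs were paralysed, so the time since the last dose was set by that endpoint and not by the protocol. The labels do not tie libraries to single mice, and p-values measure only the spread between these libraries. One cell line was used throughout, and mouse marrow cells remained in the samples. In such bulk samples fewer cells of a type and less RNA per cell cannot be told apart.

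Plasma cells secrete large amounts of immunoglobulin and depend on a large ER. When unfolded proteins build up there, 3 sensors respond: ERN1 (IRE1) cuts XBP1 mRNA, ATF6 is released by proteolysis, and EIF2AK3 (PERK) slows translation. XBP1 and ATF6 then bind short promoter elements, the ER stress response elements, of chaperone and degradation genes. Proteins that cannot be folded are passed back to the cytosol, ubiquitinated and degraded by the proteasome, the target of bortezomib.

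The promoter elements by which this pathway is known were looked for in RefSeq promoter windows of GRCh38.p14, each 300 bases long, from 250 before to 50 after an annotated start. A window was present for 44 members, and PDIA3, SPCS1, DERL1, DERL3 and SEC24D were not matched. Both strands were searched. The classical ER stress response element, 2 fixed parts with any 9 bases between them, was found in 7 of 44 members (15.9%) and in 25 of 27305 genes with a window (0.0916%). The 7 were CALR, CANX, CRELD2, HSP90B1, HSPA5, PDIA6 and XBP1. With 1 mismatch allowed in its CCACG part, the counts were 11 members (25%) and 349 genes (1.28%). The second form of the element, whose fixed parts are 1 base apart, was found in HERPUD1, HYOU1 and SDF2L1, 3 of 44 members (6.82%), against 19 of all genes (0.0696%). A core of the unfolded protein response element, TGACGTGG, was found in 7 members (15.9%) and 253 genes (0.927%). These were DNAJC10, HYOU1, SEC62, SSR3, SSR4, TXNDC11 and TXNDC5, and in HYOU1 it overlapped the second form. A match describes letters in the window and not a bound site. The following stretches are shown because they belong to members whose levels are described further on. Each reads 5′ to 3′ along the gene's strand, with the fixed letters of the element in capitals (reverse-complemented in CRELD2, HYOU1 and SSR3, where the element lies on the opposite strand).

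XBP1 (ER stress response element, chr22:28800591-28800633, minus strand): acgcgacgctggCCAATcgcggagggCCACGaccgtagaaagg
HSPA5 (ER stress response element, chr9:125241379-125241421, minus strand): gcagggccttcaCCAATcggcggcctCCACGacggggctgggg
CANX (ER stress response element, chr5:179698766-179698808, plus strand): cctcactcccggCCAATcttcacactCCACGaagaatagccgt
CRELD2 (ER stress response element, chr22:49918542-49918584, plus strand): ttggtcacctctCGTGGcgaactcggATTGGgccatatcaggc
HERPUD1 (second form, chr16:56932013-56932047, plus strand): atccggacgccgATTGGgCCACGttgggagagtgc
HYOU1 (second form, chr11:119057368-119057402, minus strand): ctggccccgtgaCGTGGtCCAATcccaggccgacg
SSR3 (unfolded protein response element core, chr3:156554147-156554178, minus strand): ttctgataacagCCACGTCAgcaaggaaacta
TXNDC11 (unfolded protein response element core, chr16:11742833-11742864, minus strand): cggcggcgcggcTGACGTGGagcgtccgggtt

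Library totals ran from 4500326 to 13161087 counts. Summed plasma-cell markers stood at 11436 to 14191 CPM (counts scaled to the total of their library) over all libraries, with 10 of 11 listed genes among those tested and CD27 at 0 in the PBS, bortezomib and combination groups. The markers therefore matched the label of the cell line. In 3 libraries, Bortezomib 1, Combination 1 and Delayed 2 (the GC-rich libraries), GC-rich genes were high and GC-poor genes low (correlation of a gene's deviation with its GC content 0.51, 0.49 and 0.32, against -0.29 to -0.35 in PBS). Averaged over the host cell lists, markers of blood, vessel and stromal cells were highest in Elesclomol 1 (mean log2 CPM 2.04, against 0.31 to 0.86 in the others). Erythroid markers (2 of 9 tested) summed to 29.7 to 340.1 CPM in the elesclomol group and 11.3 to 37.5 CPM elsewhere, with HBA1 at 0 in all groups. Granulocyte markers (5 of 9 tested) summed to 12.7 to 128 CPM with elesclomol and 6.94 to 32 CPM elsewhere, and S100A8 and CAMP were at 0 in the elesclomol group. Stromal markers (8 of 10 tested) summed to 104 to 134 CPM in PBS, 122 to 155 CPM with bortezomib, 128 to 200.2 CPM with elesclomol, 112 to 156 CPM with the combination and 132 to 237 CPM with the delayed combination, with Delayed 2 highest. Of these, the collagen gene COL1A1 was 2.13 to 3.97 CPM in PBS and 7.89 to 47.4 CPM in the treated libraries. COL1A2 was 2.28 to 9.49 CPM in PBS and 10.2 to 51.8 CPM in the treated libraries. RUNX2 of the same list went the other way, at 39.8 to 50.2 CPM in PBS and 21.9 to 40.7 CPM in the treated libraries. For the other listed stromal genes, the treated libraries overlapped PBS. Macrophage markers (4 of 8 tested, CD14 at 0 in the PBS and delayed groups) summed to 14.7 to 30.7 CPM in PBS, 22.3 to 26.7 CPM with bortezomib, 15.4 to 62.8 CPM with elesclomol, 17.7 to 22.2 CPM with the combination and 13.5 to 69.4 CPM with the delayed combination. The part of collagen and macrophage markers in the changes given further on was not tested on its own.

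The ER genes were among the most abundant transcripts of these tumors. Their median level was 292 CPM, against 19.2 CPM over all genes tested. Per exon length, 26 of the 49 were among the 500 highest genes. XBP1, the transcription factor that makes plasma cells secretory, was highest at 827 RPKM (CPM per kilobase of exon), rank 20 of all genes tested. The chaperones CALR, HSP90B1 and CANX followed at 346, 307 and 296 RPKM. SSR3 of the translocon stood at 237 RPKM, and the disulfide isomerases P4HB and PDIA4 at 216 and 214 RPKM. HSPA5 (BiP), the main Hsp70 chaperone of the ER, was lower at 70.3 RPKM, rank 20 among the members. At the bottom were SPCS2, CRELD2 and SEC63 at 7.35, 6.1 and 4.13 RPKM. SPCS2 has 4 named pseudogenes and SEC63 has 2 that could share reads, so the levels of these 2 genes are uncertain.

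**Figure D1:**
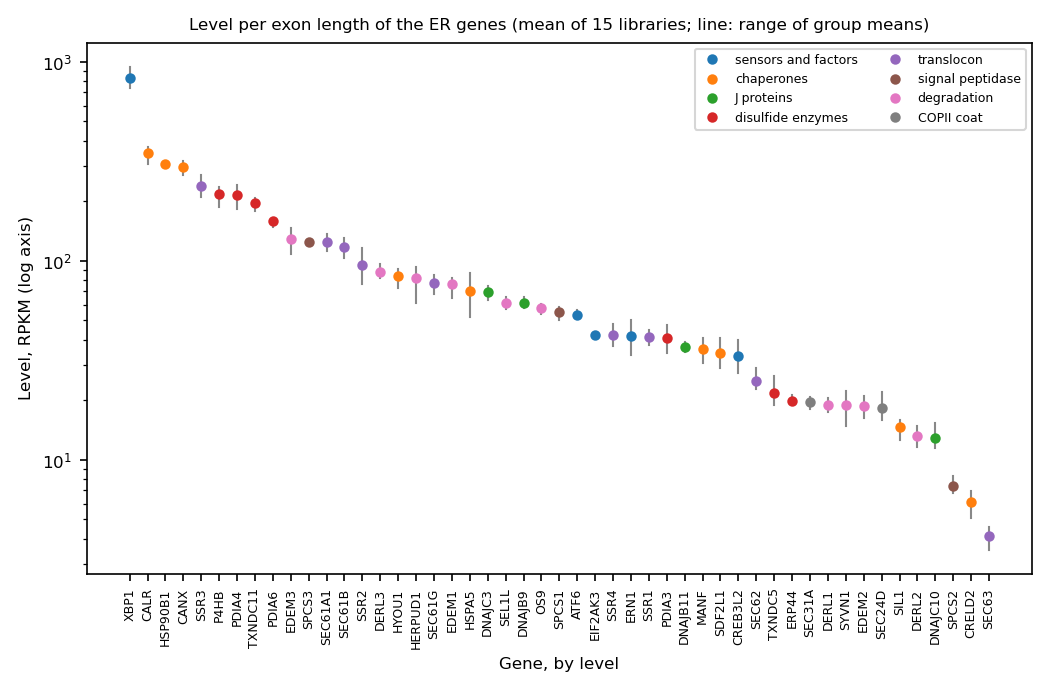
Level of each of the 49 ER genes per exon length (RPKM, log axis), highest to lowest, coloured by role; points are means of 15 libraries and lines span the 5 group means. XBP1 stands highest at 827 RPKM and SEC63 lowest at 4.13, and the lines are short beside the spread between genes.

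Relative to PBS, most ER genes stood slightly higher under every treatment, and no single member passed the test across all genes. The shift was smallest with elesclomol, where the library medians given further on overlapped those of PBS. With bortezomib 41 of 49 were above 0 and 8 below (background 52.6% and 47.4% of genes tested), and with the combination 40 and 9 (51.7% and 48.3%). With elesclomol 35 were above 0 (50.7%), and with the delayed combination 42 (51.3%). Median log2 changes of the members were 0.16, 0.05, 0.23 and 0.15, beside 0.02, 0.00, 0.01 and 0.01 over all genes tested, and the median standard error of a member with bortezomib was 0.12. These 4 comparisons share the 3 PBS libraries, so their values are given side by side and are not independent.

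By the edgeR quasi-likelihood test, adjusted over all genes, 0 of 49 members passed 0.05 against PBS in any of the 4 comparisons. The shares of all genes that passed were 0% with bortezomib, the combination and the delayed combination, and 0.0382% higher and 0.0306% lower with elesclomol. At an unadjusted p under 0.05, 19 members were higher and 0 lower with bortezomib (background 6.76% and 3.84%). With the combination, 23 were higher and TXNDC11 alone was lower (7.72% and 5.92%). The delayed combination had 13 higher and 0 lower (6.03% and 5.03%). Elesclomol had 7 higher (CREB3L2, CRELD2, ERN1, HERPUD1, HSPA5, SYVN1 and XBP1) and TXNDC5 alone lower (4.88% and 3.19%). DESeq2 called 0, 2, 2 and 0 members in the bortezomib, elesclomol, combination and delayed comparisons: ERN1 and XBP1 with elesclomol, CREB3L2 and SYVN1 with the combination. Its background of genes called higher was 0.0382%, 0.237%, 0.199% and 0.145%. Limma voom with quality weights, which down-weights variable libraries, called 10, 1 (ERN1), 27 and 1 (SSR2), all higher. Its background of genes called higher was 3.4%, 0.29%, 5.62% and 0.459%.

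Counted by library, 25 of 49 members (51%) had all 3 bortezomib libraries above all 3 PBS libraries, against 10.5% of genes tested. The count was 13 (26.5%, background 9.53%) with elesclomol, 24 (49%, background 11.3%) with the combination and 21 (42.9%, background 12.9%) with the delayed combination. The opposite pattern was found for SEL1L and TXNDC11 with bortezomib (background 9.61%) and with the combination (10.9%). It was found for DNAJC10, EDEM3 and TXNDC5 with elesclomol (10.3%), and for DNAJC10, TXNDC11 and TXNDC5 with the delayed combination (14.7%). Members above PBS in all 4 treatments numbered 9 (18.4%, background 1.26%): CANX, CRELD2, EDEM1, HSPA5, HYOU1, P4HB, PDIA4, SIL1 and SYVN1. Leaving out a library can only keep or raise such a count, for the members and for all genes alike. Without Bortezomib 1, Combination 1 and Delayed 2, the counts were 33 (background 14.9%), 29 (15%) and 27 (15.5%) in the bortezomib, combination and delayed groups. Without Combination 2 the combination count was 36 (background 24.2%), and without Elesclomol 2 the elesclomol count was 20 (background 17%).

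**Figure D2:**
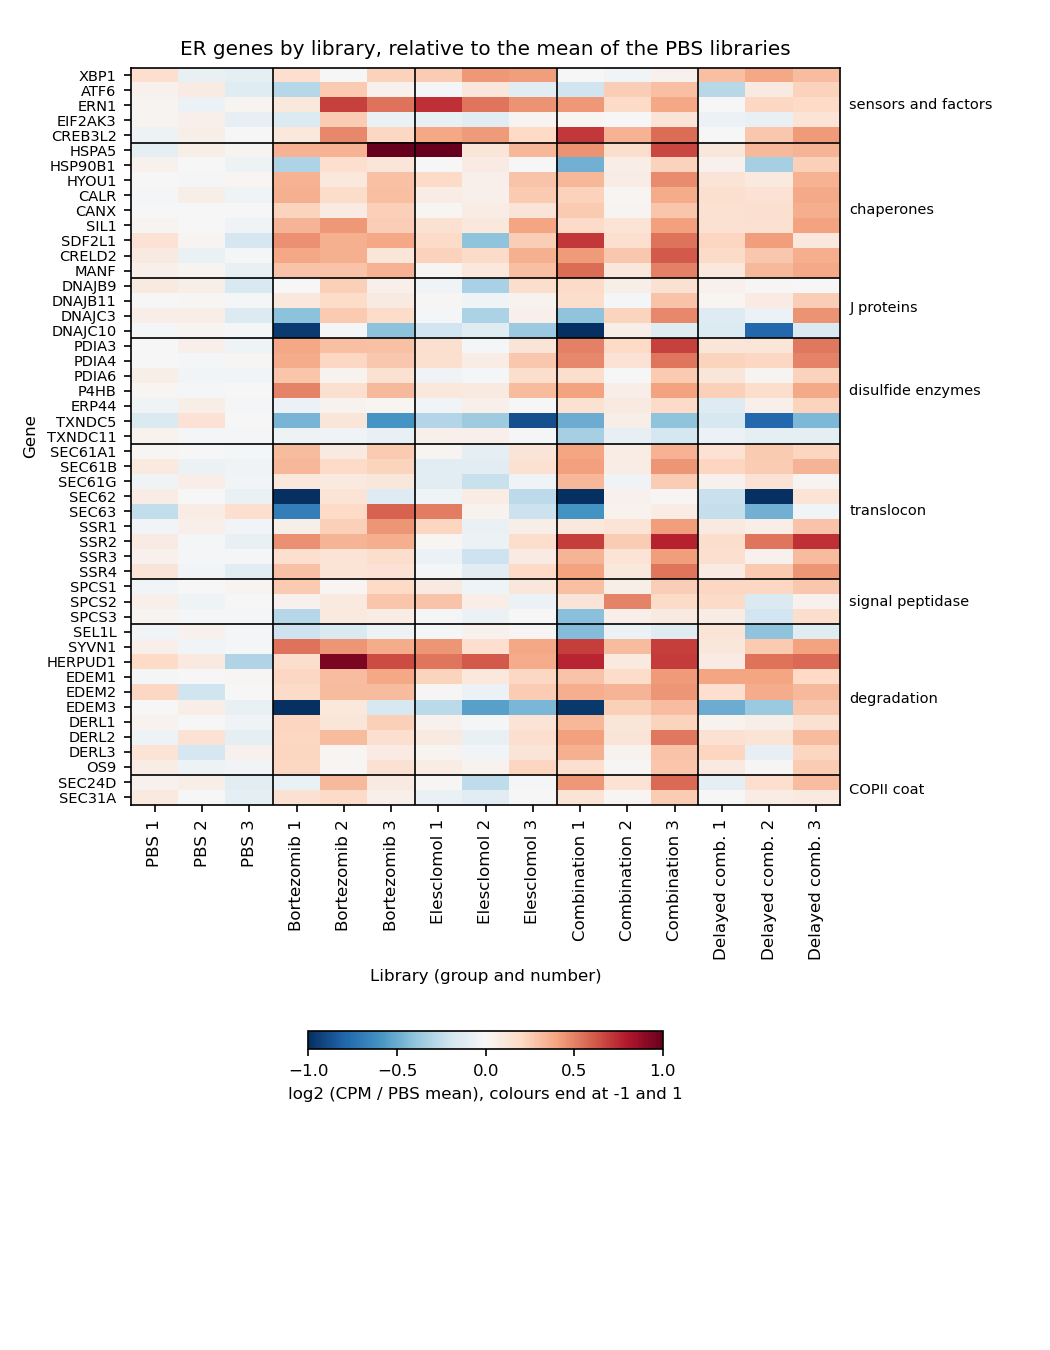
Each row is 1 of the 49 ER genes, grouped by role, and each column 1 of the 15 libraries; colour is the log2 difference of CPM from the mean of the PBS libraries, with colours ending at -1 and 1. Most rows are pale red to the right of PBS, while DNAJC10, SEC62 and EDEM3 are blue in Bortezomib 1 and Combination 1.

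Among the sensors and their factors, XBP1 stood at 2481, 2106 and 2072 CPM in the PBS libraries and at 2634, 2987 and 2948 CPM with elesclomol. It was 2484, 2221 and 2601 CPM with bortezomib, 2224, 2173 and 2285 CPM with the combination, and 2728, 2892 and 2745 CPM with the delayed combination. All elesclomol and delayed libraries lay above all PBS libraries, whereas the bortezomib and combination libraries overlapped PBS. The log2 change was 0.36 ± 0.10 (SE) with elesclomol (adjusted p = 0.362) and 0.33 ± 0.10 with the delayed combination (adjusted p = 0.363), but 0.01 ± 0.10 with the combination (adjusted p = 0.989). Gene counts do not separate spliced from unspliced XBP1 mRNA, and XBP1 has a pseudogene, XBP1P1, that could share reads.

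ERN1, the sensor kinase that splices XBP1, was 372, 349 and 372 CPM in PBS and 603, 529 and 498 CPM with elesclomol. It stood at 391, 586 and 531 CPM with bortezomib, 493, 416 and 476 CPM with the combination, and 365, 419.9 and 418 CPM with the delayed combination. Every bortezomib, elesclomol and combination library was above PBS, and Bortezomib 1 was the lowest of these 9. The log2 change was 0.58 ± 0.13 with elesclomol (adjusted p = 0.201), 0.47 ± 0.13 with bortezomib (adjusted p = 0.419) and 0.34 ± 0.13 with the combination (adjusted p = 0.32). Without the 3 GC-rich libraries, the elesclomol change of ERN1 had an edgeR adjusted p of 0.021. Leaving out Bortezomib 1 alone also brought it past the threshold. These libraries belong to neither group of that comparison and enter it only through the shared fit. Over all genes tested, 0.0382% were called higher with elesclomol in the full fit and 0.213% without the 3 libraries.

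CREB3L2, an ER-anchored transcription factor of secretory cells, was higher without overlap with bortezomib, elesclomol and the combination, with log2 changes of 0.27, 0.34 and 0.55 (SE 0.13 each; adjusted p = 0.471, 0.538 and 0.18). ATF6 and EIF2AK3, the other sensors, had changes between -0.05 and 0.13 in the 4 comparisons, with overlapping libraries.

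All 9 chaperones were above 0 with bortezomib, elesclomol and the delayed combination, and 8 of 9 with the combination. In that order of groups, their median log2 changes were 0.30, 0.15, 0.24 and 0.30. HSPA5 was 191, 212 and 207 CPM in PBS. It was 258, 258 and 496 CPM with bortezomib, 464, 221 and 256 CPM with elesclomol, 278, 229 and 322 CPM with the combination, and 219.6, 254 and 257 CPM with the delayed combination. All 12 treated libraries lay above PBS, and 2 of them, Bortezomib 3 and Elesclomol 1, far above the rest. The log2 change was 0.73 ± 0.29 with bortezomib (adjusted p = 0.454) and 0.35 without Bortezomib 3. With elesclomol it was 0.63 ± 0.29 (adjusted p = 0.614) and 0.23 without Elesclomol 1, the library with the highest host markers. With host markers as a covariate, the HSPA5 change with elesclomol was 0.11.

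CANX (calnexin), a lectin chaperone of glycoproteins, was the tightest of the abundant members in PBS, at 1671, 1678 and 1679 CPM. It stood at 1957, 1778 and 1972 CPM with bortezomib, 1702, 1762 and 1837 CPM with elesclomol, 2013, 1707 and 2031 CPM with the combination, and 1865, 1874 and 2152 CPM with the delayed combination. Although no treated library overlapped PBS, the log2 changes were small, 0.18, 0.08, 0.19 and 0.23 (SE 0.10 each; adjusted p = 0.497, 0.901, 0.404 and 0.444). HSP90B1 (GRP94), the ER form of Hsp90, overlapped PBS in every group. It was 1482, 1446 and 1394 CPM in PBS, 1163, 1614 and 1563 CPM with bortezomib, and 1437, 1525 and 1445 CPM with elesclomol. With the combination it was 1032, 1508 and 1689 CPM, and with the delayed combination 1484, 1142 and 1698 CPM. The low library of each bortezomib-containing group was the GC-rich one, and its part in the result was not tested beyond the values without it.

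The remaining chaperones had values of a similar size. With the combination, the log2 change was 0.45 ± 0.11 for CRELD2 (adjusted p = 0.195), 0.41 ± 0.12 for MANF (0.252) and 0.49 ± 0.17 for SDF2L1 (0.294). HYOU1, which exchanges nucleotides on BiP, stood at 0.30 ± 0.12 (0.318), SIL1, another exchange factor, at 0.25 ± 0.11 (0.353), and CALR (calreticulin) at 0.21 ± 0.11 (0.405).

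J proteins deliver substrates to BiP. Their median log2 changes were 0.06, -0.07, 0.14 and 0.06 in the bortezomib, elesclomol, combination and delayed comparisons. DNAJC3 was 397, 396 and 344 CPM in PBS, 284, 454 and 429 CPM with bortezomib, and 374, 303 and 392 CPM with elesclomol. It was 286, 442 and 529 CPM with the combination and 346, 364 and 517 CPM with the delayed combination. DNAJC10 (ERdj5), a reductase that works in degradation, was 328, 337 and 329 CPM in PBS but 171, 329.5 and 249 CPM with bortezomib. It was 290.1, 305 and 256 CPM with elesclomol, 152, 345 and 305 CPM with the combination, and 301, 192 and 299.7 CPM with the delayed combination. Both genes spread widely within groups, and the lowest DNAJC10 value of each bortezomib-containing group was in its GC-rich library. DNAJC10 log2 changes were -0.41, -0.22, -0.31 and -0.33 (SE 0.29 each; adjusted p = 0.565, 0.899, 0.617 and 0.62).

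Disulfide enzymes split into members above and members below PBS. P4HB (protein disulfide isomerase) was 997, 970.1 and 980.2 CPM in PBS. It was 1387, 1095 and 1233 CPM with bortezomib, 1055, 1043 and 1226 CPM with elesclomol, 1301, 1029.7 and 1299 CPM with the combination, and 1156, 1112 and 1276 CPM with the delayed combination. No treated library of P4HB reached down to PBS, and its log2 changes were 0.33, 0.17, 0.30 and 0.27 (SE 0.12 each; adjusted p = 0.449, 0.761, 0.324 and 0.446). PDIA3 and PDIA4 were also higher, by 0.48 ± 0.13 and 0.40 ± 0.12 with the combination (adjusted p = 0.218 and 0.252). Reads of PDIA3 could be shared with its pseudogenes PDIA3P1 and PDIA3P2.

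TXNDC11, a thioredoxin-domain protein of the ER membrane, was 891, 857 and 864 CPM in PBS and lower without overlap with bortezomib (840.2, 849 and 829 CPM), the combination (689.9, 824 and 769 CPM) and the delayed combination (835, 812 and 819.7 CPM). With elesclomol it was 904, 899.7 and 862 CPM. The difference was small, -0.19 ± 0.09 with the combination (adjusted p = 0.353) and -0.05 ± 0.09 with bortezomib (0.799). TXNDC5, a disulfide isomerase of plasma cells, had log2 changes of -0.28, -0.49, -0.27 and -0.45 (SE 0.22 each; adjusted p = 0.591, 0.61, 0.573 and 0.455). Of its exon length, 60.6% overlaps the readthrough gene BLOC1S5-TXNDC5 on the same strand, so its counts are uncertain.

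In the translocon, which threads new chains into the ER, 8 of 9 genes were above 0 with bortezomib, 5 with elesclomol, and 7 with each combination. SSR2, a subunit of the translocon-associated protein complex, was 538, 502 and 483 CPM in PBS and 514, 486 and 574 CPM with elesclomol. It was 695, 640.5 and 653 CPM with bortezomib, 819, 606 and 865 CPM with the combination, and 573, 735 and 842 CPM with the delayed combination. The 9 libraries from mice given bortezomib were all above PBS, whereas elesclomol alone overlapped it. The log2 changes were 0.38, 0.05, 0.59 and 0.50 (SE 0.15 each; adjusted p = 0.449, 0.96, 0.19 and 0.307). SSR3, its partner subunit, also overlapped PBS with elesclomol alone: it was 1034, 992 and 992 CPM in PBS and 966, 869.5 and 1063 CPM with elesclomol. It was 1132, 1104 and 1137 CPM with bortezomib, 1275, 1103 and 1346 CPM with the combination, and 1124, 1039 and 1255 CPM with the delayed combination. Its log2 change was 0.30 ± 0.11 with the combination (adjusted p = 0.297) and -0.06 ± 0.11 with elesclomol (adjusted p = 0.932).

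SEC61A1 and SEC61B, of the channel itself, had log2 changes of 0.28 ± 0.10 and 0.32 ± 0.11 with the combination (adjusted p = 0.316 and 0.295). SEC62, which serves translocation after synthesis, is named for its spread, after its values were seen: it was 240.1, 227 and 218 CPM in PBS but 86, 72.6 and 98.7 CPM in Bortezomib 1, Combination 1 and Delayed 2. Its other treated libraries lay between 190.5 and 251 CPM. Its transcript is GC-poor, at 36.7% GC.

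Signal peptidase subunits, which cut off the targeting signal, had medians of 0.14, 0.06, 0.21 and 0.04. SPCS3 was 878, 856 and 852 CPM in PBS, 709, 920.3 and 908 CPM with bortezomib, and 856, 827 and 861 CPM with elesclomol. It was 646, 891 and 917 CPM with the combination and 906, 756 and 973 CPM with the delayed combination, overlapping PBS throughout. SPCS1 was 261, 267 and 272 CPM in PBS and 329, 278 and 316 CPM with the combination, 307, 307 and 321 CPM with the delayed combination, 319.6, 269.7 and 306 CPM with bortezomib, and 284, 259 and 288 CPM with elesclomol. Its combination and delayed libraries lay above PBS (log2 change 0.21 and 0.23, SE 0.09 each; adjusted p = 0.358 and 0.43). Exons of GLT8D1 and NEK4 lie opposite 58.1% of the SPCS1 exon length, and the strand setting of the counting is not given in the sources used here.

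Degradation factors had medians of 0.21, 0.07, 0.27 and 0.16. SYVN1 (HRD1), the ubiquitin ligase of ER-associated degradation, gave the smallest p of all members with bortezomib and with the combination. It was 83.9, 79.6 and 80.1 CPM in PBS, 118, 110.2 and 105 CPM with bortezomib, and 110.1, 91.4 and 106 CPM with elesclomol. With the combination it was 131, 101 and 131 CPM, and with the delayed combination 87.8, 97.2 and 107 CPM. All 12 treated libraries lay above the PBS libraries. The log2 change was 0.58 ± 0.12 with the combination (adjusted p = 0.158), 0.45 ± 0.12 with bortezomib (0.419), 0.34 ± 0.12 with elesclomol (0.485) and 0.26 ± 0.12 with the delayed combination (0.444). Of the SYVN1 exon length, 8.39% overlaps FAU and MIR6751 on the same strand, and 6.48% lies opposite MRPL49. The part of this overlap in its counts was not tested.

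HERPUD1, an ER membrane partner of the ligase, was 357, 333 and 252 CPM in PBS and 351, 595 and 488 CPM with bortezomib. It was 449, 474 and 401 CPM with elesclomol, 527, 333 and 504 CPM with the combination, and 328, 452 and 461 CPM with the delayed combination. Only the elesclomol libraries were all above PBS. Its log2 changes were large but poorly determined, 0.61, 0.49, 0.54 and 0.40 (SE 0.21 each; adjusted p = 0.449, 0.596, 0.325 and 0.475). EDEM1, which marks misfolded glycoproteins for degradation, was above PBS in all 12 treated libraries, with log2 changes of 0.30, 0.18, 0.30 and 0.33 (SE 0.09 each; adjusted p = 0.419, 0.68, 0.275 and 0.301).

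EDEM3, a related mannosidase, did not follow EDEM1. It was 1134, 1182 and 1073 CPM in PBS, 560.3, 1215 and 1009.9 CPM with bortezomib, and 935, 776 and 823 CPM with elesclomol. It was 578, 1335 and 1397 CPM with the combination and 801, 871 and 1359 CPM with the delayed combination. Elesclomol libraries were all below PBS (log2 change -0.42 ± 0.33, adjusted p = 0.813), and the other groups straddled it. SEL1L, the partner of SYVN1, was 609.8, 642 and 616 CPM in PBS and lower without overlap with bortezomib (538, 562 and 600.2 CPM) and the combination (462, 598 and 573 CPM). It was 614, 641 and 629 CPM with elesclomol and 679.6, 470.2 and 573 CPM with the delayed combination. The SEL1L log2 change was -0.14 ± 0.13 with bortezomib and -0.19 ± 0.13 with the combination (adjusted p = 0.642 and 0.487). After the correction for GC content and length it was 0.10 and 0.04.

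DERL3, a derlin of secretory cells, was 341, 274 and 319.9 CPM in PBS, 360.1, 314 and 328 CPM with bortezomib, and 316, 305 and 340.1 CPM with elesclomol. It was 398, 318 and 378 CPM with the combination and 359.9, 293 and 360.0 CPM with the delayed combination. All groups overlapped PBS, and SMARCB1 exons lie opposite 77% of its exon length.

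Of the COPII coat, which carries folded cargo out of the ER, SEC24D was 171, 173 and 154 CPM in PBS and 224, 183 and 245 CPM with the combination. It was 158, 208 and 176 CPM with bortezomib, 167, 139 and 164 CPM with elesclomol, and 156, 186 and 205 CPM with the delayed combination. The combination alone was without overlap (log2 change 0.38 ± 0.14, adjusted p = 0.297). SEC31A overlapped PBS in every group, at 184, 172 and 161 CPM in PBS, 191, 196 and 178 CPM with bortezomib, and 164, 159 and 172 CPM with elesclomol. It was 189, 174 and 205 CPM with the combination and 173, 181 and 184 CPM with the delayed combination.

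**Figure D3:**
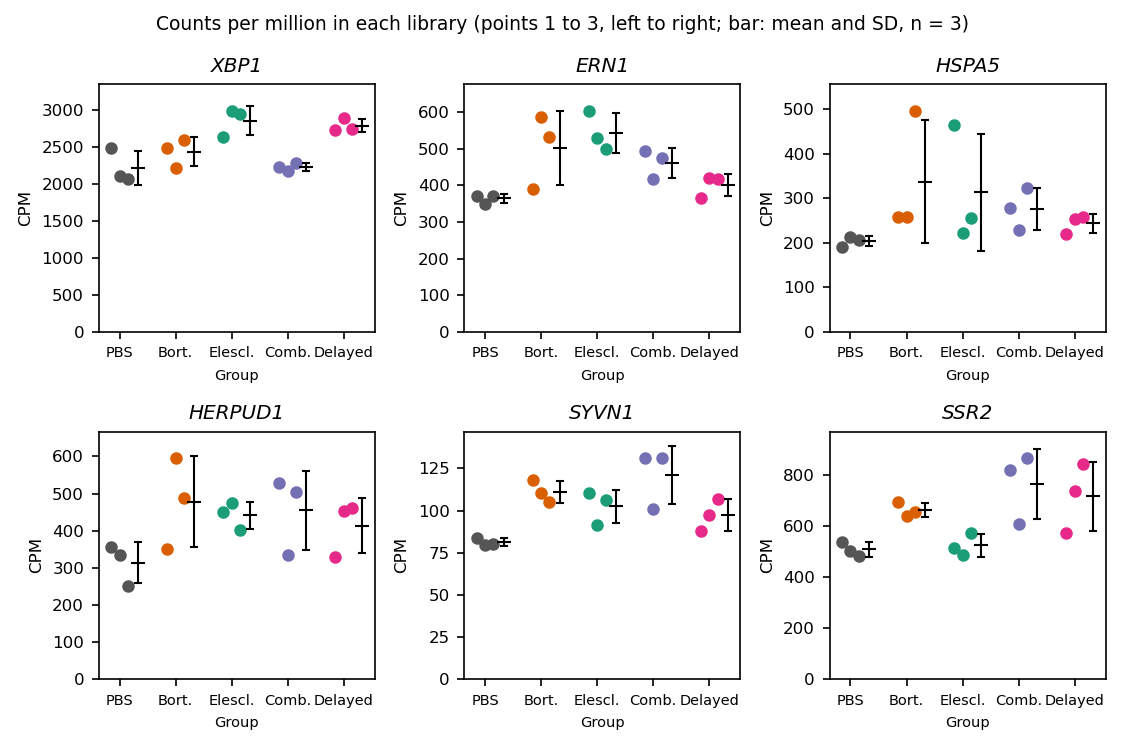
CPM of 6 ER genes in each library (points, libraries 1 to 3 of a group from left to right) with the group mean and SD (bars, n = 3); axes start at 0. SYVN1 and HSPA5 are above PBS in all 12 treated libraries, XBP1 is above PBS without overlap with elesclomol and the delayed combination, and SSR2 without overlap in the 3 groups given bortezomib.

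The 4 groups PBS, bortezomib, elesclomol and combination form a 2 by 2 design. Averaged over elesclomol, the bortezomib effect was above 0 for 40 of 49 members (background 51.5%), with a median log2 value of 0.18. By edgeR 0 members passed after adjustment (0% of genes), 27 were higher at an unadjusted p under 0.05 (background 8.57%) and 1, TXNDC11, was lower (6.05%). DESeq2 called 1 member (SSR2) and limma voom 20, with backgrounds of 0.0688% and 2.65% of genes called higher. The leading members were SSR2 at 0.46 ± 0.10, SYVN1 at 0.35 ± 0.08, PDIA3 at 0.35 ± 0.09, SEC61B at 0.29 ± 0.08 and SDF2L1 at 0.42 ± 0.12, each with an edgeR adjusted p of 0.241. The elesclomol effect averaged over bortezomib was above 0 for 36 members (background 49.3%), with a median of 0.05. No member passed (0 by edgeR, DESeq2 and limma voom; 0% of genes by edgeR), and at an unadjusted p under 0.05, 0 were lower (background 1.59%) and 4 higher (2.1%): CREB3L2, SYVN1, CRELD2 and ERN1. CREB3L2 stood at 0.31 ± 0.09 (adjusted p = 0.984).

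The interaction asks whether the combination differed from the sum of both single-agent changes. By edgeR 0 members passed (0% of genes lower, 0.00764% higher), and at an unadjusted p under 0.05, 0 were above 0 (background 3.57%) and 3 below (5.22%): ERN1, XBP1 and HSPA5. These 3 are 6.12% of the members, near that background, so their values describe single genes and not the list. DESeq2 called 0 members, and limma voom called ERN1 and XBP1 (background 1.44% lower). The ERN1 interaction was -0.70 ± 0.19 (95% interval -1.10 to -0.30, adjusted p = 0.35), that of XBP1 -0.49 ± 0.15 (-0.81 to -0.18, adjusted p = 0.387) and that of HSPA5 -0.91 ± 0.40 (-1.79 to -0.04, adjusted p = 0.55). The HSPA5 value depended on 2 libraries: it was -0.53 without Bortezomib 3, -0.52 without Elesclomol 1, and -0.27 with host markers as a covariate. Without the 3 GC-rich libraries, the ERN1 interaction was -0.91 with an edgeR adjusted p of 0.0237 (background 0.213% of genes passing lower). The libraries left out include the lowest ERN1 value with bortezomib (391 CPM) and the highest with the combination (493 CPM). Leaving out these values by itself makes the interaction more negative. In that fit ERN1, HERPUD1 and XBP1, not HSPA5, were below 0 at an unadjusted p under 0.05 (6.12% of members, near the background of 5.7%). Over all 49 members, 24 were above 0 (background 48.6%), and the median was -0.01. Of the 9 chaperones 1 was above 0, and of the 9 translocon genes 7.

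The delayed combination was compared with the combination begun at once. Of the members, 39 were lower (background 51.3%), with a median log2 difference of -0.09. None passed by edgeR, DESeq2 or limma voom (0 of 49, 0% of genes by edgeR), and 3 had an unadjusted p under 0.05. XBP1 was higher (background 1.09%), by 0.32 ± 0.10, and SYVN1 and CREB3L2 were lower (background 1.54%), at -0.32 ± 0.11 and -0.31 ± 0.13 (adjusted p = 1 for each). XBP1 libraries of the 2 groups did not overlap, at 2728, 2892 and 2745 CPM against 2224, 2173 and 2285 CPM. Against bortezomib alone, 29 members were lower in the delayed combination (background 52.4%) and the median was -0.02. By edgeR, DESeq2 and limma voom 0 passed (0% of genes by edgeR), and ERN1 alone had an unadjusted p under 0.05 (3.52% of genes), at -0.32 ± 0.13 (adjusted p = 1). A test of any difference among the 5 groups gave 0 members by edgeR (0% of genes), 16 at an unadjusted p under 0.05 (9.4% of genes), 3 by DESeq2 (SSR2, SYVN1 and XBP1; 1.08% of genes) and 21 by limma voom (8.3% of genes). SYVN1 had the smallest p (adjusted p = 0.276).

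The shift of the ER genes was present in most libraries but differed in size among them. The median log2 difference of the 49 members from PBS was 0.18, 0.18 and 0.20 in the bortezomib libraries and 0.29, 0.09 and 0.34 in the combination libraries. It was 0.11, 0.12 and 0.27 in the delayed libraries and 0.03, -0.01 and 0.13 in the elesclomol libraries. All genes tested had medians between -0.01 and 0.04 in the same libraries. The elesclomol libraries, on this measure, overlapped PBS (0.03, 0.01 and -0.02), and the other 3 groups did not. With host markers as a covariate in the fit, the median member change with elesclomol was 0.01, with 31 of 49 above 0, and the bortezomib, combination and delayed medians were 0.16, 0.23 and 0.13.

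**Figure D4:**
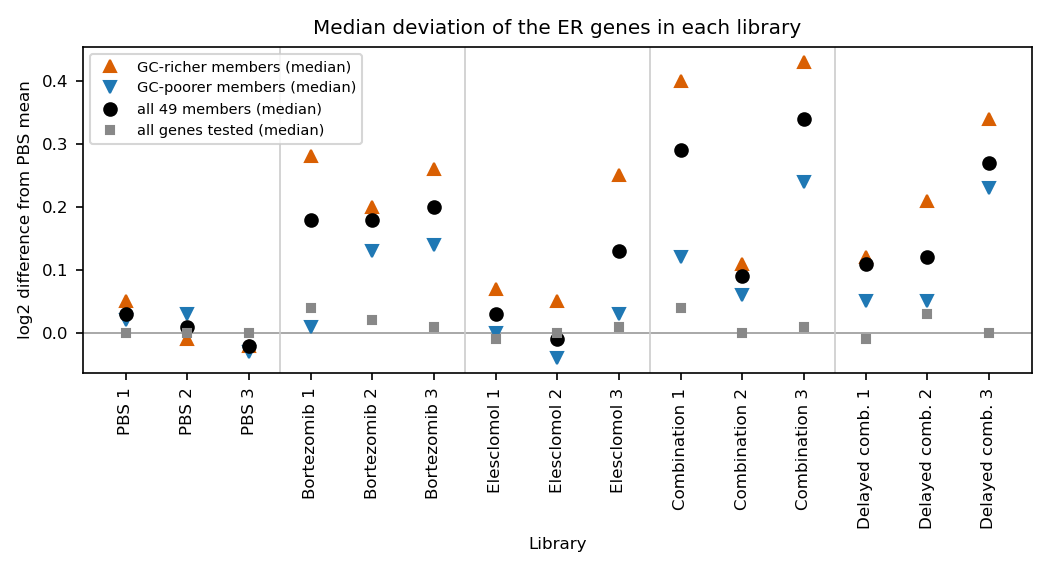
Median log2 difference from the PBS mean in each of the 15 libraries, for all 49 ER genes (circles), the GC-richer and GC-poorer members (triangles up and down) and all genes tested (squares). Members sit at 0.09 to 0.34 in the bortezomib, combination and delayed libraries while all genes stay within 0.04 of 0, and GC-richer members are above GC-poorer ones in each treated library.

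Changes of the members moved with GC content, as they did over all genes. Across the 49 members, which share their libraries, the correlation of log2 change with GC content was 0.46, 0.30, 0.46 and 0.41 in the bortezomib, elesclomol, combination and delayed comparisons. Across 12794 genes it was 0.40, 0.25, 0.41 and 0.33. After a correction for GC content and length the correlation across members was -0.24, -0.11, -0.24 and -0.29. The members' median changes were then 0.17, 0.07, 0.25 and 0.15, with 43, 37, 46 and 44 of 49 above 0. Without the 3 GC-rich libraries the medians were 0.18, 0.06, 0.28 and 0.20. The size of the shift therefore remained close to the uncorrected medians under both settings.

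**Figure D5:**
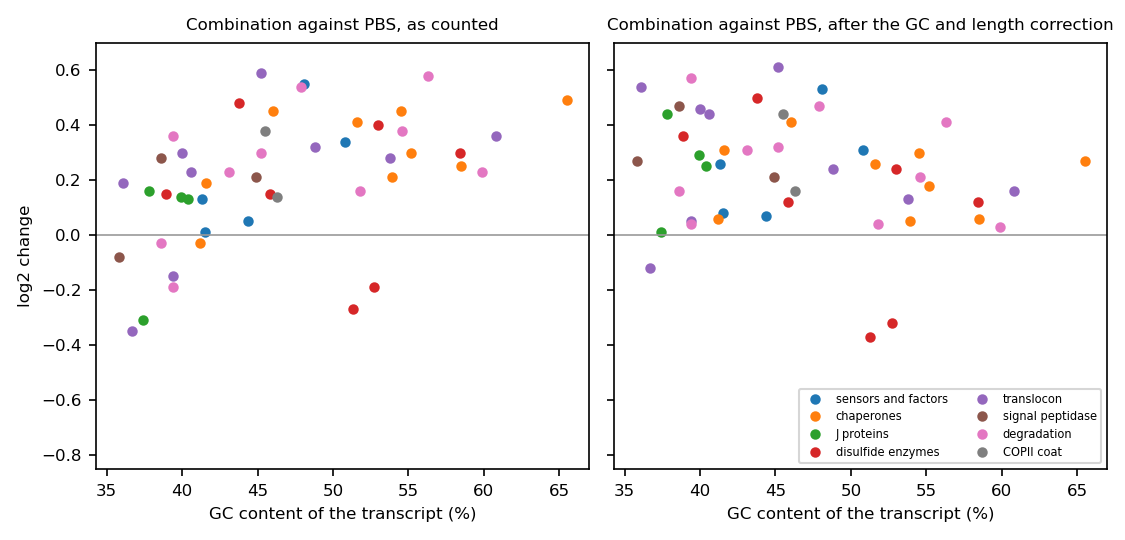
Log2 change of each ER gene with the combination against PBS, plotted against the GC content of its transcript (%), as counted (left) and after the GC and length correction (right), coloured by role. Low-GC genes below 0 on the left, such as SEC62 and DNAJC10, move toward or above 0 on the right, and 46 of 49 genes are then above 0.

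Read against the promoter elements shown earlier, the 10 members with either form of the ER stress response element had median log2 changes of 0.27, 0.16, 0.26 and 0.24 in the bortezomib, elesclomol, combination and delayed comparisons. The 28 members with none of the 3 elements had medians of 0.18, 0.06, 0.24 and 0.13. The 6 members with the TGACGTGG core only had medians of -0.17, -0.07, -0.23 and -0.20. After the GC and length correction, the members with an ER stress response element had medians of 0.18, 0.12, 0.22 and 0.14 in the same order. Those with none of the elements then had 0.19, 0.10, 0.26 and 0.15, and those with the core only -0.08, -0.06, -0.05 and -0.03. In the interaction, 1 of the 10 members with an ER stress response element was above 0 (median -0.13). These differences between small sets of genes were not tested.

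A wider list of 82 ER genes outside the 49, covering further folding, targeting, degradation, signalling and COPII genes, was also above 0 for most genes, though not for all. This list too was drawn up with earlier results of these data known. With bortezomib 64 of 82 were above 0 (median 0.15; background 52.6% of genes), with elesclomol 49 (0.04; 50.7%), with the combination 59 (0.16; 51.7%) and with the delayed combination 61 (0.13; 51.3%). None of the 82 passed in any of the 4 comparisons by edgeR. At an unadjusted p under 0.05, 16, 8, 20 and 12 were higher (background 6.76%, 4.88%, 7.72% and 6.03%), and 0, 3, 4 and 2 lower (3.84%, 3.19%, 5.92% and 5.03%). WFS1 (wolframin), an ER membrane protein, had the smallest p of the list with the combination, at 0.70 ± 0.14 (adjusted p = 0.158), and stood at 0.64 ± 0.14 with bortezomib (adjusted p = 0.419). FOXRED2, a degradation factor, was at 0.41 ± 0.12 with elesclomol and -0.11 ± 0.12 with the combination (adjusted p = 0.362 and 0.667). PPP1R15A, which reverses the translational arrest set by EIF2AK3, stood below PBS in the groups given elesclomol, at -0.65 ± 0.27, -0.59 ± 0.27 and -1.28 ± 0.27 with elesclomol, the combination and the delayed combination (adjusted p = 0.588, 0.36 and 0.213), but at 0.05 ± 0.26 with bortezomib. Against bortezomib, the delayed combination stood at -1.33 ± 0.27 (adjusted p = 0.813). ATF3, a stress-induced transcription factor, was at -0.55 ± 0.35, -0.97 ± 0.35, -1.14 ± 0.36 and -1.44 ± 0.35 with bortezomib, elesclomol, the combination and the delayed combination (adjusted p = 0.533, 0.503, 0.275 and 0.252).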

How the data were processed

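Total RNA libraries (ribosomal RNA removed, stranded kit) of 15 xenograft samples were used as deposited counts per gene, with no change of scale by the authors in the files. Per the submitters' processing notes, STAR 2.5.4b, GRCh37 and featureCounts 1.6.1 were used. Neither annotation release, strand setting nor handling of mouse reads is given in these sources. Gene names, exon lengths and GC content came from GENCODE 29 (52338 identifiers named; GC and length for 97.8% of tested genes), and promoter windows from RefSeq on GRCh38.p14.

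Genes were filtered with filterByExpr (minimum count 10), scaled by TMM and fitted in 1 model of 5 groups with edgeR 4.0.16 (R 4.3.3), using the robust quasi-likelihood F test and Benjamini-Hochberg adjustment over 13085 genes (threshold 0.05). The common biological coefficient of variation was 0.171. CPM are TMM-scaled, and RPKM divides them by exon length. Fold changes, SE and 95% intervals come from this fit. Mitochondrial genes took 35% to 40.3% of counts. Replicates differed by more than counting noise, with a chi-square per degree of freedom of 2.17 to 3.04 between PBS libraries and 5.38 to 26 within the treated groups. No library was thus a plain repeat of another, but this does not show that each came from a separate mouse. The PBS libraries were closer to each other than those of any treated group, while the fit used 1 estimate of the spread for all groups. Depth limits precision, and intervals cover these libraries only. Alternatives were DESeq2 1.42.0, limma 3.58.1 (voom with quality weights), other size factors, no filter, only the compared groups, a replicate block, a host-marker covariate, a GC and length correction (loess, span 0.3), leaving out each library, and leaving out the 3 GC-rich libraries. The count of libraries without overlap under other settings was added after seeing the data. Scripts were tested on simulated data.

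The members and the lists were chosen with earlier results of these data known. Values in every library are given for members past the threshold, the 2 most abundant members of each role, and XBP1, HSPA5, HERPUD1, SYVN1 and DERL3; others are named as examples.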

Additional observations from a re-analysis of the deposited data

How the results depend on the processing

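With edgeR, 0 members passed in each of the 10 tests when DESeq2 size factors, the GC and length correction or the host-marker covariate was used. At all 3 numbers, same-numbered libraries deviated together only between the bortezomib and combination groups (correlations 0.118 to 0.655, against -0.12 to 0.0938 for pairs with PBS). Some differently numbered libraries also deviated together, such as Combination 1 with Delayed 2 (0.473). Others deviated in opposite directions, such as Bortezomib 1 with Combination 2 (-0.545). The labels give no source of pairing. With the replicate number as a block, 0 members passed in each test. DESeq2 called 2 members with elesclomol, 2 with the combination, 1 for the bortezomib effect and 3 for any difference. Limma voom called 10 with bortezomib, 1 with elesclomol, 27 with the combination, 1 with the delayed combination, 20 for the bortezomib effect, 2 for the interaction and 21 for any difference. Without a filter on low counts the numbers were 2, 1, 6, 1, 5, 1 and 7 in the same order. With only the groups compared, 2 members passed with elesclomol. Without the 3 GC-rich libraries, 1 (ERN1) passed with elesclomol, in the interaction and for any difference. The background was 0.213% of genes higher with elesclomol, 0.213% lower in the interaction and 0.373% for any difference. Leaving out single libraries gave 0 to 1 members with elesclomol and in the interaction (1 without Bortezomib 1), 0 to 1 with the combination (1 without Combination 2), and 0 otherwise. Shares of all genes are not given here for the fits without a filter, with only the groups compared, or with single libraries left out. Those counts therefore cannot be set against a background. The cause of these differences was not tested.

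Leaving out a library can only keep or raise the count of members above PBS without overlap. As single libraries were left out, this count was 25 to 33 with bortezomib (background 14.2% to 23.4%) and 13 to 20 with elesclomol (13.9% to 17%). It was 24 to 36 with the combination (14.1% to 24.2%) and 21 to 28 in the delayed group (15.5% to 23%). The GC and length correction gave 24, 14, 26 and 16 (background 9%, 8.11%, 8.92% and 9.95%). Over all genes, edgeR called 0 with bortezomib and 0 with the combination, DESeq2 9 and 51, and limma voom 741 and 1394. The alternatives gave 3360 values of the 20 members given by library, in the comparisons against PBS, the bortezomib and elesclomol effects and the interaction. Of these values, 46 moved past the threshold, and 60 moved by at least the SE of the main fit while called in neither fit. None (0) reversed while called, and 143 changed sign while called in neither fit. With totals of 4500326 to 13161087 counts and 3 libraries a group, a member's median SE of 0.12 bounds what could be separated.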
